A study of Bos taurus with 8 samples.

Results

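The comparison described here set lame against normal crossbred cows, in peripheral blood mononuclear cells, the fraction of blood that holds lymphocytes and monocytes. It was made up of every array titled as lame crossbred (4 arrays) or normal crossbred (2 arrays), which is 6 of the 8 arrays of the series. The other 2 arrays came from normal cows of Tharparkar, an Indian zebu breed, and entered only the estimate of the spread between arrays. The lame arrays carry 2 RNA numbers, R1 and R2, each with 2 arrays (R1_1, R1_2, R2_1 and R2_2), and the normal crossbred arrays carry 1 number each (R1 and R2). Per the labels' protocols RNA was run as technical duplicates, and the arrays paired up accordingly, so they were read as lame RNA sample R1, lame RNA sample R2 and 1 normal crossbred RNA sample, each hybridised to 2 arrays. The breeds in the cross, the age of the cows, the number of cows behind an RNA sample, and the cause, grade and duration of lameness were not given in the sources used here.

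Lameness in cattle is a disturbance of gait, most often from painful lesions of the claw, and such lesions can be inflammatory, infectious or mechanical. Blood mononuclear cells do not lie in the lesion, but they respond to cytokines, stress hormones and microbial products carried in blood. In monocytes such signals switch on immediate early transcription factors within minutes, then interleukin-1 and chemokines. T cells and NK cells answer with interferon gamma and cytotoxic proteins.

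Values are on the log2 scale, as the scanner's processed signal relative to the 75th percentile of its array, so a level of 0 is the 75th percentile of that array. Differences are lame minus normal crossbred, fold is the same difference on the linear scale, and n is 4 lame and 2 normal arrays throughout. Of 43653 noncontrol probes 24204 were well above background on every array of either group, and they represented 14862 genes, each by its brightest probe. The share of probes above background was 54.5% to 61.4% on 5 of the arrays and 70.9% on lame R2_2, whose negative control spots reached a median raw signal of 107, those of the others 53 to 65. The defining markers tested for T cells, B cells, monocytes and NK cells were above background on all 6 arrays, apart from CD79B, which had no named probe. The lame arrays always lay at the first and second position of a slide and the normal crossbred arrays at the third, so position and condition cannot be told apart.

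The order of the distances between lame and normal arrays depended on the measure. Over all genes kept, the median absolute difference between duplicate arrays was 0.14 in lame R1, 0.18 in lame R2 and 0.11 in the normal crossbred sample. Between lame R1_1 and lame R2_1 it was 0.46. Between lame R1_1 and normal crossbred R1 it was 0.37, and between lame R2_1 and the same normal array it was 0.40. By this measure these lame arrays lay farther from each other than from the normal array. By correlation across genes, which are not independent replicates, they lay closer to each other, with 0.970 between lame R1_1 and R2_1 against 0.963 and 0.961 between these arrays and normal R1, and 0.982 to 0.997 between duplicates. Pairs that held lame R2_2 were the farthest apart of their kind.

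**Figure D1:**
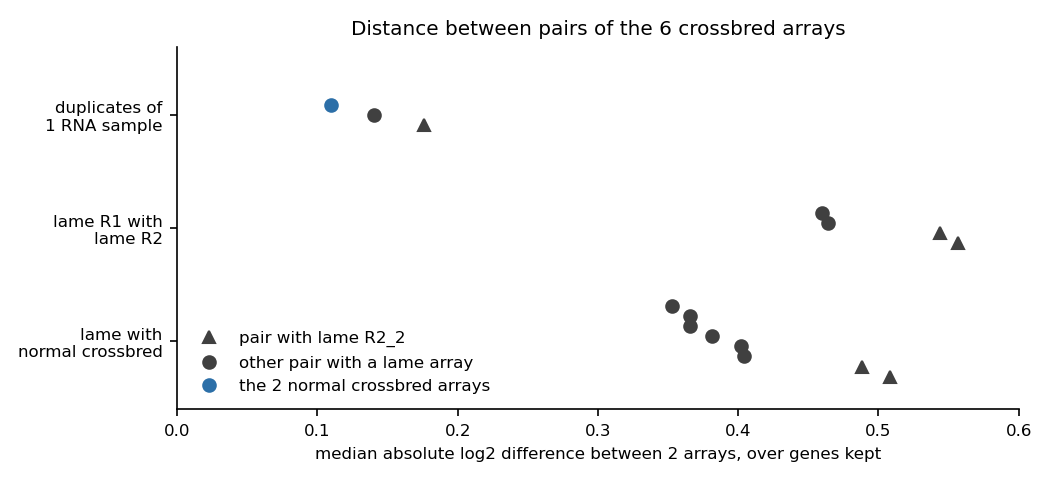
Median absolute log2 difference over the genes kept (x axis) for each pair of the 6 crossbred arrays, grouped by what the pair shares (y axis). Triangles mark pairs that hold lame R2_2, and the lame R1 to lame R2 pairs sit at 0.46 or above while the 6 lame to normal pairs without it sit between 0.35 and 0.40.

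In the fit across arrays 1463 genes, 9.84% of those tested, passed an adjusted p of 0.05 in limma. Of these, 496 were higher in the lame arrays (3.34%) and 967 lower (6.51%), and of these 303 (2.04%) and 507 (3.41%) changed by at least 2-fold. Duplicates of only 3 RNA samples stand behind these 6 arrays, so the p-values reflect array-to-array spread and understate the uncertainty between cows. With the RNA sample as a random block, where arrays of the same RNA correlated at 0.82, 31 calls were made, 14 higher and 17 lower. At an unadjusted p under 0.05 in the main limma fit 9.98% of all genes were higher and 16.0% lower. All 4 lame arrays lay above both normal arrays for 2308 genes (15.5%) and below both for 3491 genes (23.5%). Scaling by the array median in place of the 75th percentile moved the median of all genes from -0.04 to -0.55, and 47 genes were then called higher and 317 lower. The share of calls that were higher was thus 33.9% in the main setting, 12.9% with median scaling and 21.7% with normexp background correction.

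Named genes with the widest clear space between the lame and the normal arrays come first. Among those lower in the lame arrays was IL1B, which encodes the inflammatory cytokine interleukin-1 beta. Its level was -1.06 and -1.17 in lame R1, -0.32 and -0.41 in lame R2, and 2.77 and 2.72 on the normal arrays. All lame arrays were far below both normal arrays, by 11.2-fold (-3.49, SE 0.27, adjusted p = 0.00063), and the other 3 IL1B probes gave -2.14, -2.66 and -3.01. IL1A, which encodes interleukin-1 alpha, was at -4.05 and -4.47 in lame R1, at -4.16 and -2.60 in lame R2, and at 0.28 and 0.14 on the normal arrays. Lame R2_2 was the highest of the lame arrays and still lay below both normal ones (-4.03, SE 0.48, adjusted p = 0.0033). CXCR1, a receptor for the neutrophil attractant interleukin-8, was at -0.62 and -0.57 in lame R1, at -2.62 and -2.30 in lame R2, and at 2.31 and 2.28 on the normal arrays. Lame R2 was thus lower than lame R1 by 1.87, with both below the normal sample (-3.82, SE 0.61, adjusted p = 0.0104). The calls of IL1A and CXCR1 were lost with the RNA sample as a random block (adjusted p = 0.38 and 0.0908), whereas that of IL1B was kept (adjusted p = 0.0172). Without normal array R1 the adjusted p of IL1A was 0.0551 and that of CXCR1 0.117, and without normal array R2 that of CXCR1 was 0.106.

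Enzymes and membrane proteins with no shared pathway made up most of the other lower genes. TGM3, a transglutaminase that cross-links proteins and is expressed in granulocytes, stood at 2.11 and 1.93 in lame R1, 2.02 and 1.98 in lame R2, and 4.98 and 4.95 on the normal arrays. The 4 lame arrays were closely grouped, 7.75-fold below the normal level (-2.95, SE 0.13, adjusted p = 6.17e-05, and adjusted p = 0.0159 with the random block). DGAT2, which carries out the last step of triglyceride synthesis, was at 2.13 and 2.07 in lame R1, at 1.41 on both lame R2 arrays, and at 4.71 on both normal arrays. Its fall was 7.78-fold (-2.96, SE 0.25), with -3.23 and -3.26 at its other probes. SDS, serine dehydratase, which breaks down serine to pyruvate, stood between -0.07 and 0.13 on the lame arrays and at 2.74 and 2.68 on the normal arrays (-2.64, SE 0.13). LSR, a lipoprotein receptor of epithelia and liver (-2.81, SE 0.24), and VAT1L (-2.89, SE 0.21) fell as well. COL18A1, a basement membrane collagen, fell by 2.43 at its brightest probe, but its other probes gave -1.92, -1.04 and 0.47, so its probes disagree in sign.

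Of the genes higher in the lame arrays, CRYGS, known as a crystallin of the eye lens, stood at 3.22 and 3.1 in lame R1, 2.87 and 2.47 in lame R2, and -1.81 and -1.83 on the normal arrays. The lame arrays were 26.6-fold higher (4.73, SE 0.22, adjusted p = 7.77e-05). TNFAIP6, a hyaluronan-binding protein that tumour necrosis factor induces, was at -0.82 and -0.46 in lame R1, at -0.78 and -0.54 in lame R2, and at -3.89 and -4.11 on the normal arrays. Both lame RNA samples were raised to the same extent, by 10.2-fold (3.35, SE 0.16, adjusted p = 8.95e-05). LYPD8, known from colon epithelium where it holds back flagellated bacteria, was at 0.38 and 0.37 in lame R1, 0.18 on both lame R2 arrays, and at -2.55 and -2.53 on the normal arrays (2.82, SE 0.14). Each of these calls was kept with the RNA sample as a random block. CORO1B, a coronin that binds actin filaments, was 36.0-fold higher at its brightest probe (5.17, SE 0.17), whereas its other probe gave 1.04.

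Further rises were weaker or unequal between the lame RNA samples. PRSS57, a serine protease of neutrophil granules, was at 0.84 and 0.75 in lame R1, at -0.78 and -0.69 in lame R2, and at -3.26 and -3.66 on the normal arrays. PPP1R1B, an inhibitor of protein phosphatase 1, was at 2.53 and 2.35 in lame R1, at 0.80 and 0.81 in lame R2, and at -1.09 and -1.10 on the normal arrays. Both were higher in lame R1 than in lame R2, by 1.53 and 1.64, and their calls were lost without normal R1 (adjusted p = 0.0779 and 0.181) or without normal R2 (adjusted p = 0.0955 and 0.172). ITM2C, a membrane protein (2.35, SE 0.15), IFI47, an interferon-inducible GTPase (2.29, SE 0.17), and OAZ2, an antizyme that restrains polyamine synthesis (2.05, SE 0.16), rose too. COL6A1, a collagen VI chain (1.97, SE 0.14), AKR1C4, an aldo-keto reductase (2.15, SE 0.20), and TTC32 (2.15, SE 0.24) completed the set. In the normal Tharparkar arrays COL6A1 averaged 1.12, ITM2C 2.55, OAZ2 2.69 and PRSS57 1.02, each above every lame array, and TNFAIP6 averaged -0.74, within the range of the lame arrays. With 1 normal crossbred RNA sample, a low level in that sample and a rise with lameness cannot be told apart, nor can a high level and a fall. Median scaling ended the calls of ITM2C, IFI47, PPP1R1B, TTC32, COL6A1, AKR1C4 and OAZ2.

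**Figure D2:**
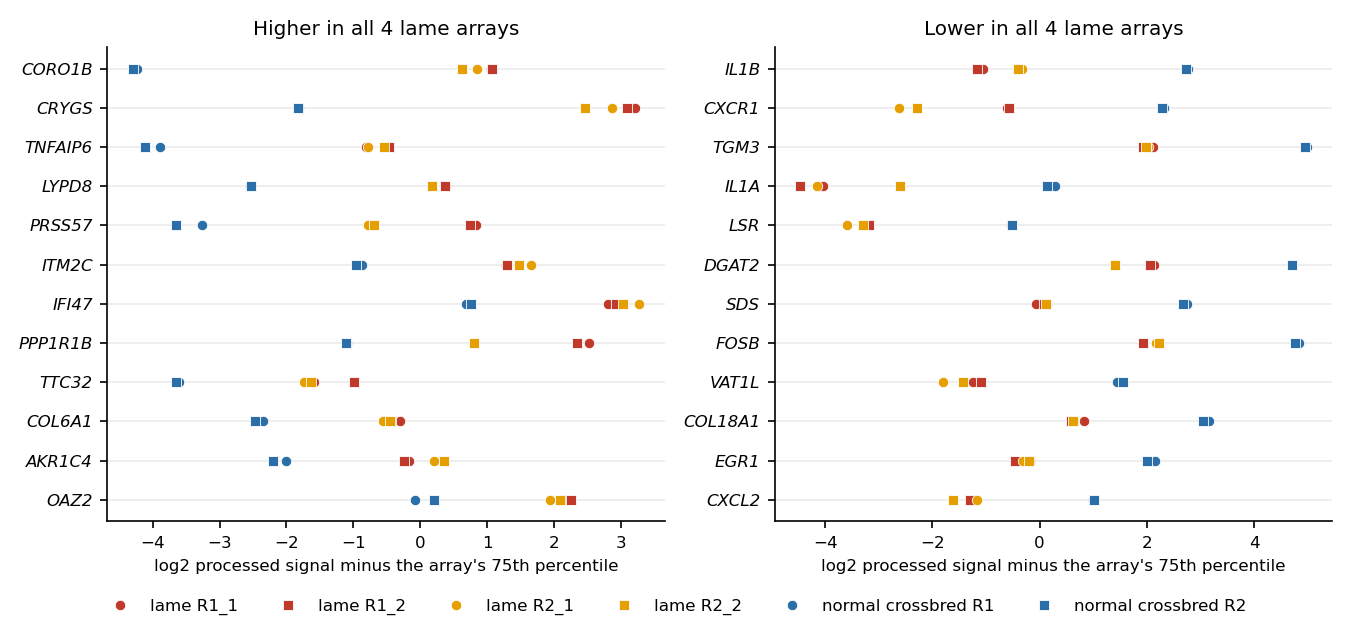
Levels of the 12 genes higher (left) and the 12 lower (right) in the lame arrays with the widest space between groups, as log2 processed signal relative to the 75th percentile of the array (x axis). Each marker is 1 array, red for lame R1, yellow for lame R2 and blue for normal crossbred, and no lame marker crosses a normal marker, which is how these genes were chosen.

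Some genes were measurable above background on all arrays of 1 group but on none of the other, so the fold is a lower bound set by the faintest measurable signal. BOLA-DQA5, an MHC class II alpha chain of cattle, was at 3.81 on both normal arrays and at -6.56, -6.81, -6.61 and -5.38 on the lame arrays, at least 286-fold lower. Its other probe gave -9.89, and neither Tharparkar array was above background. Class II alpha chain genes of cattle are close copies that differ in sequence and number between animals, so which copy the probe read is uncertain. KRT24, an epithelial keratin, was at least 14.6-fold lower, was above background on 0 Tharparkar arrays and did not pass with the random block (limma adjusted p = 0.554). RUFY4 was at least 3.78-fold lower, AREG, the epidermal growth factor receptor ligand amphiregulin, at least 2.34-fold lower, and TMEM119 at least 2.29-fold lower. RUFY4, AREG and TMEM119 were above background on both Tharparkar arrays. In the other direction CPXM2, a carboxypeptidase-like protein, was at least 19.1-fold higher. Its level was -0.67 and -0.87 in lame R1, -0.08 and -0.27 in lame R2, and -5.53 and -5.70 on the normal arrays. PNOC, the precursor of the neuropeptide nociceptin, was at least 6.77-fold higher, DPYSL5 at least 6.03-fold, DZANK1 at least 5.97-fold and IRAK1, a kinase of interleukin-1 and Toll-like receptor signalling, at least 4.76-fold. CPXM2, PNOC, DPYSL5 and DZANK1 were above background on both Tharparkar arrays, and IRAK1 on 1. DPYSL5 averaged -1.49 there and DZANK1 -1.55, above every lame array. A floor at the 1st percentile of measurable signals lowered the bounds, to 16-fold for CPXM2, 241-fold for BOLA-DQA5 and 1.97-fold for AREG. A probe with the identifier NM_001079577, without a named symbol and singled out after its values were seen, stood at 3.89 and 3.99 in lame R1, 3.54 and 3.50 in lame R2 and at -5.45 and -5.36, not well above background, on the normal arrays.

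Named genes among the 31 calls made with the RNA sample as a random block were CORO1B, CPXM2, PNOC, CRYGS, DPYSL5, LRATD1, TNFAIP6, LYPD8 and ITM2C on the higher side. On the lower side they were AFAP1L2, ARPC3, COL18A1, SDS, FOSB, TGM3, DGAT2, FABP2, IL1B and BOLA-DQA5. LRATD1, AFAP1L2 and FABP2 are named only for this call, after their values were seen. In that fit ARPC3, a subunit of the Arp2/3 complex that branches actin filaments, was lower by 2.31 (SE 0.28, adjusted p = 0.0364). Its level was 3.25 and 3.22 in lame R1, 3.09 and 2.93 in lame R2, and 5.38 and 5.49 on the normal arrays. The lame arrays were thus closely grouped and far from the normal ones. On the normal Tharparkar arrays COL18A1 was at -0.99 and -1.11 and AFAP1L2 at -2.02 and -2.16, each below every lame array. IL1B, SDS, FOSB, TGM3 and DGAT2 lay above both normal crossbred arrays there. FABP2, a fatty acid binding protein of the intestine, was lower by 3.35 (SE 0.45, adjusted p = 0.0498). It was above background on 1 of the 4 lame arrays and on both normal arrays. FABP2 was thus kept only through the normal arrays, where it was high, which favours a lower call. LRATD1 was above background on 4 lame and 0 normal arrays, so it was kept only through the lame arrays, which favours a higher call.

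Immediate early genes, the transcription factors and feedback regulators that a stimulus switches on first, were lower in lame cows' arrays. Of the 29 that were measured 15 fell, which is 51.7% against 6.51% of all genes, and their median was -0.78 against -0.04 for all genes tested. In limma 0 members rose, and 0 were higher at an unadjusted p under 0.05. FOSB, a subunit of the AP-1 transcription factor, was at 2.17 and 1.93 in lame R1, at 2.18 and 2.23 in lame R2, and at 4.84 and 4.76 on the normal arrays (-2.68, SE 0.15, adjusted p = 0.000176). Its level was alike on the 4 lame arrays, but its other probes gave -1.08 and 0.05. EGR1, a zinc finger transcription factor, was at -0.17 and -0.47 in lame R1, at -0.32 and -0.20 in lame R2, and at 2.15 and 2.0 on the normal arrays (-2.36, SE 0.14). The other EGR1 probe gave -0.94. SGK1, a kinase induced by glucocorticoids and serum, was 4.88-fold lower (-2.29, SE 0.15), with -2.44 at its other probe. DUSP2, a phosphatase that switches MAP kinases off, fell by 2.69 in lame R1 and by 1.60 in lame R2. Against these, JUN differed by -0.09 (SE 0.16) and IER3 by 0.08, the members with the smallest changes together with MCL1. The list's median was -0.65 in lame R1 and -0.84 in lame R2, and it was between -1.29 and -0.51 under the other scalings and with a gene's probes averaged. With the random block 1 member, FOSB, was called.

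Inflammatory cytokines and chemokines were lower as well, with 10 of 24 measured members falling, 41.7% against 6.51% of all genes, and a median of -0.83. Beside the interleukin-1 genes, CXCL2, a neutrophil attractant, stood at -1.3 on both lame R1 arrays, at -1.16 and -1.62 in lame R2, and at 1.00 and 1.02 on the normal arrays (-2.35, SE 0.16, adjusted p = 0.000442). CXCL3, a close relative of CXCL2 that could share its probe signal, was above background on 1 of the 4 lame arrays and on both normal arrays (-2.98, SE 0.39). It was thus kept only through the normal arrays, which favours a lower call. CXCL8, which encodes interleukin-8 and is named here after its values were seen, was at -0.43 and -0.62 in lame R1, at 2.04 and 1.93 in lame R2, and at 3.92 and 3.79 on the normal arrays. Its difference of -3.12 did not pass (adjusted p = 0.0538), and it was -4.38 in lame R1 against -1.87 in lame R2. The smallest differences were those of IL16 (0.01) and CCL3 (-0.08), the latter a chemokine of activated monocytes. TNFAIP6 was the 1 member that rose. The median was -0.74 in lame R1 and -0.77 in lame R2, and with the random block TNFAIP6 and IL1B were called.

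Receptors that guide leukocytes to chemoattractants gave 9 lower and 1 higher of 26 measured, with 34.6% lower against 6.51% of all genes and a median of -0.57. CXCR2, the second interleukin-8 receptor, was above background on 2 of the 4 lame arrays and on both normal arrays (-3.33, SE 0.34, adjusted p = 0.00173). C5AR1, the receptor of complement fragment C5a, was above background on 3 lame arrays and lower by 1.86. CXCR2 and C5AR1 were thus kept only through the normal arrays, where they were high, which favours a lower call. CXCR4, which holds leukocytes in the marrow, was at -0.71 and -0.51 in lame R1, at -0.55 and -0.53 in lame R2, and at 1.18 and 1.3 on the normal arrays, with no overlap (-1.81, SE 0.13, adjusted p = 0.000502). C3AR1, the receptor of complement fragment C3a, was the member that rose, from -4.22 and -3.68 on the normal arrays to between -3.02 and -2.0 on the lame arrays (1.44, SE 0.32, adjusted p = 0.0331). With the random block 0 members were called, and in the main fit 12 were lower and 2 higher at an unadjusted p under 0.05, a threshold that 16.0% and 9.98% of all genes passed. The median was -0.81 in lame R1 and -0.44 in lame R2.

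Granulocytes can remain in mononuclear preparations, and their markers moved with these groups. Of 44 listed granulocyte markers 22 were measured, and 8 of them (36.4% against 6.51% of all genes) were lower, with a median of -0.50. TGM3, CXCR1, CXCR2 and TCN1, a vitamin B12 binding protein of neutrophil granules (-2.31, SE 0.15), fell furthest, though CXCR2 was kept only through the normal arrays. The sum of the list's linear scaled signals was 209 to 239 on the lame arrays and 294 to 308 on the normal arrays. At least 1 probe of 17 listed markers was above background on all 6 arrays, so granulocyte RNA was measurable in both groups. The median was -1.0 in lame R1 and -0.31 in lame R2, and without lame R2_2 the list had 10 lower members and a median of -0.70. The part of granulocyte content in the lower interleukin-1, CXCR1, CXCR2 and immediate early values was not tested.

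Type I interferon response genes, which block viral replication, were lower on balance. Of 33 measured members 9 fell, 27.3% against 6.51% of all genes, and the median was -0.53. All 4 lame arrays lay below both normal arrays for 20 of the 33 members, and for 3491 of all 14862 genes (23.5%). OAS1X, an antiviral oligoadenylate synthetase, was at -4.55 and -3.71 in lame R1, at -3.52 and -2.17 in lame R2, and at 1.20 and 1.22 on the normal arrays. It was above background on 3 of the 4 lame arrays (-4.70, SE 0.56, adjusted p = 0.00335), and so was kept only through the normal arrays. Near-identical OAS1 copies of the bovine genome could share its signal. IFIT3, an antiviral protein that interferon induces, stood at -2.35 and -2.14 in lame R1, -1.28 and -1.62 in lame R2, and 0.21 and 0.26 on the normal arrays (-2.08, SE 0.29). RTP4 (-1.29, SE 0.21) and OAS1Z (-1.18, SE 0.15) fell too, with other probes at 0.27 and -0.31. In limma 0 members rose, and 1 was higher and 18 lower at an unadjusted p under 0.05, a threshold that 9.98% and 16% of all genes passed. With the random block 0 were called. The list's calls were lost when either normal array was left out, and most calls over all genes were lost as well.

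Pattern recognition receptors and their adaptors had 2 of 28 measured members higher and 2 lower, 7.14% each way and near the 3.34% and 6.51% of all genes, and 0 called with the random block. TLR4, the receptor of bacterial lipopolysaccharide, was at -1.35 and -1.54 in lame R1, at -0.56 and -0.31 in lame R2, and at 0.79 and 0.76 on the normal arrays (-1.71, SE 0.35). Its other probes gave -0.16 and -0.56, and the brightest did not pass with the random block (limma adjusted p = 0.298). CD14, its co-receptor, was at -0.65 and -0.86 in lame R1, at 0.13 and 0.06 in lame R2, and at 1.31 and 1.14 on the normal arrays (-1.56, SE 0.31, adjusted p = 0.0215). Its other probe gave -0.61, and limma with the random block gave an adjusted p of 0.304. For both genes lame R1 lay furthest from the normal level. TLR7, the receptor of single-stranded RNA, rose (1.62, SE 0.36), as did IRAK1.

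T cell markers were lower in the lame arrays, with 8 of 25 measured members falling, 32% against 6.51% of all genes, and a median of -0.56. CD8A, the co-receptor of cytotoxic T cells, was at 2.75 and 2.87 in lame R1, at 2.96 and 2.89 in lame R2, and at 4.27 and 4.22 on the normal arrays, with no overlap (-1.38, SE 0.13, adjusted p = 0.00131). TXK, a kinase of T cell signalling (-1.44, SE 0.33), GATA3, a transcription factor of helper T cells (-1.08, SE 0.24), and CD3G, which carries the antigen receptor's signal inward (-1.01, SE 0.25), fell too. The other CD3G probes gave -1.09 and -0.15. CD3E, its partner in the receptor, differed by -0.35 (SE 0.24, adjusted p = 0.409), and its lame arrays overlapped the normal ones. The sum of the list's linear signals was 235 to 303 on the lame arrays and 369 to 383 on the normal arrays. The mean level of the list was 1.4 to 1.7 on the lame arrays and 2.1 on both normal crossbred arrays. On both normal Tharparkar arrays it was 1.1, below every lame array. A high level in the 1 normal crossbred RNA sample and a fall with lameness cannot be told apart. Fewer T cells and less RNA per T cell cannot be told apart in such bulk samples, here and for the cell types below.

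NK and cytotoxic genes followed, with 6 of 18 measured members falling (33.3% against 6.51%) and a median of -0.77, although the lists of T and NK genes hold related cells and are not independent. NKG7, a granule membrane protein of killer cells, was between 3.90 and 4.0 on the 4 lame arrays and at 5.42 and 5.36 on the normal arrays (-1.44, SE 0.13, adjusted p = 0.00102). NCR3, an activating NK receptor (-1.28, SE 0.21), FASLG, the death ligand of cytotoxic cells (-1.17, SE 0.14), and PRF1, the pore-forming perforin (-1.02, SE 0.19), fell as well. Other probes gave -0.42 and -0.24 for FASLG, and -0.96 and -0.45 for PRF1. The summed signal was 103 to 142 on the lame arrays and 218 to 225 on the normal arrays. The mean level of the NK list was 0.09 to 0.72 on the lame arrays and 0.98 to 1.0 on the normal crossbred arrays. It was -0.16 to -0.12 on the normal Tharparkar arrays, below every lame array, so the same limit holds. In both lists 0 members rose in limma, and 0 were higher at an unadjusted p under 0.05. With the random block neither list had a called member. Leaving out either normal array left fewer lower members in each list, as it did over all genes. B cell markers had 0 calls among 11 measured, with 1 higher and 1 lower at an unadjusted p under 0.05, against 9.98% and 16% of all genes.

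Genes of T cell costimulation and exhaustion gave 10 lower and 1 higher of 24 measured, with 41.7% lower against 6.51% of all genes and a median of -0.63. With the random block 0 of them were called. TOX, a nuclear factor of exhausted T cells, was at -1.58 and -1.14 in lame R1, at -1.05 and -1.22 in lame R2, and at 0.67 and 0.85 on the normal arrays (-2.01, SE 0.18, adjusted p = 0.00112). CD200, an inhibitory ligand (-1.54, SE 0.23), and SLAMF7, a receptor of lymphocyte activation (-1.21, SE 0.23), were lower. PDCD1, which encodes the inhibitory receptor PD-1, fell by 1.31 at its brightest probe (SE 0.15), but its other probe gave 0.28. ID2, a regulator of innate lymphocyte development, was higher by 0.76. In the normal Tharparkar arrays TOX averaged -1.70, CD200 -1.84 and PDCD1 0.41, each below every lame array, and SLAMF7 1.12, within the range of the lame arrays. The sum of T cell marker signal was lower in the same arrays, and its part in these values was not tested.

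Monocyte markers went the other way. Of 26 measured members 5 rose (19.2%) and 1, CD14, fell (3.85%), against 3.34% and 6.51% of all genes, and the median was 0.52. C1QA, C1QB and C1QC, the chains of complement component C1q that macrophages and monocytes make, rose together. C1QA was at 4.26 and 4.23 in lame R1, at 4.33 and 4.32 in lame R2, and at 2.90 and 3.02 on the normal arrays, so that the 4 lame arrays were closely grouped above both normal ones (1.33, SE 0.13, adjusted p = 0.00131). C1QB was higher by 1.55 (SE 0.15) and C1QC by 1.38 (SE 0.23). CSF1R, the receptor for the growth factor of monocytes, was at 3.87 and 3.94 in lame R1, at 4.30 and 4.22 in lame R2, and at 3.08 and 3.09 on the normal arrays (1.00, SE 0.20, adjusted p = 0.0233). LYZ, the lysozyme of monocytes, was at 3.26 and 3.28 in lame R1, 4.42 and 4.35 in lame R2 and 2.90 and 2.94 on the normal arrays, and did not pass (0.91, SE 0.38, adjusted p = 0.177). The summed signal was 248 to 282 on the lame arrays and 187 on both normal arrays. The mean level of the monocyte list was 1.86 to 2.30 on the lame arrays and 1.625 to 1.644 on the normal crossbred arrays. On the normal Tharparkar arrays it was 1.92 to 1.95, within the range of the lame arrays. A low level in the 1 normal crossbred RNA sample and a rise with lameness cannot be told apart. The median difference of the list shrank to 0.01 with median scaling, and 0 members were called with the random block. In the main limma fit 12 members were higher and 3 lower at an unadjusted p under 0.05, against 9.98% and 16.0% of all genes.

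The complement list, which shares the C1q chains with the monocyte list, had 5 higher members and 1 lower of 19 measured. These were 26.3% and 5.26% against 3.34% and 6.51% of all genes, with a median of 0.05 and 0 called with the random block. CD59, which shields cells from the membrane attack complex (1.62, SE 0.33), and the central component C3 (0.61, named to complete the count) were the others that rose. SERPING1, the inhibitor of C1, was the lower member and was kept only through the normal arrays. It was not well above background on any lame array, with -5.13, -5.13, -5.14 and -5.38 against -3.27 and -3.31 on the normal arrays. Among Fc receptors and phagocytosis genes NCF1, a subunit of the phagocyte oxidase, fell (-1.18, SE 0.16). HP, the acute phase protein haptoglobin, was at 0.36 on both lame R1 arrays, at 1.46 and 1.09 in lame R2, and at -1.16 and -1.36 on the normal arrays. The lame arrays were above the normal arrays, and its 3 probes agreed in direction (2.08, SE 0.33, adjusted p = 0.01, with 2.23 and 1.86 at the others), but the call was lost with the random block (adjusted p = 0.199).

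**Figure D3:**
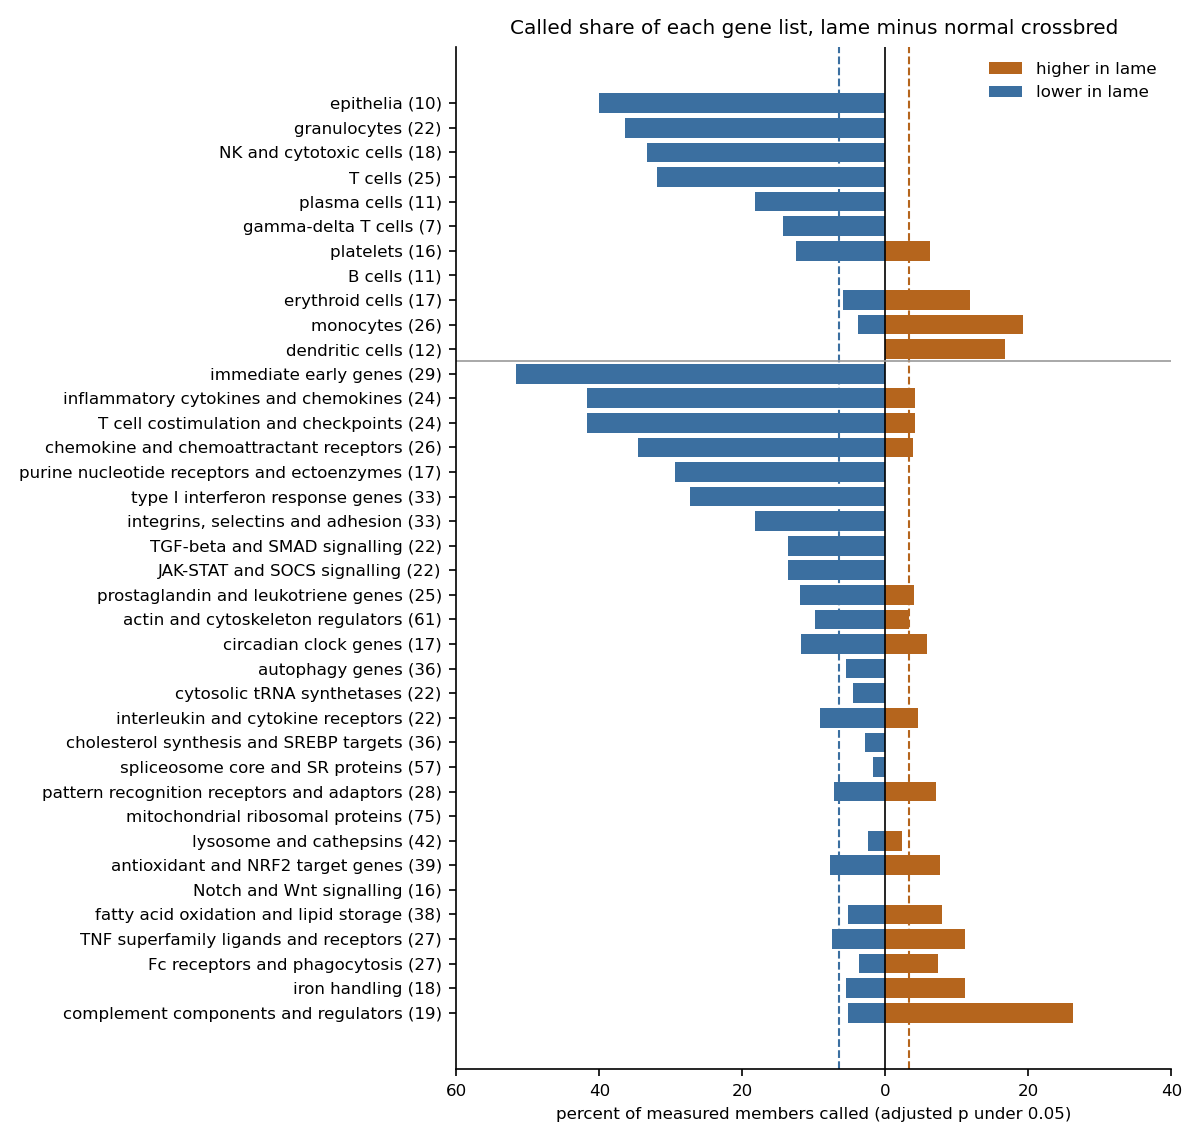
Percent of the measured members of each gene list that were called higher (brown, to the right) or lower (blue, to the left) in the lame arrays, with the number measured in brackets and marker lists above the grey line. Dashed lines give the shares over all genes, 3.34% higher and 6.51% lower, and the immediate early list reaches 51.7% lower.

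Counts of called genes leaned on having both normal arrays, over all genes as well as in the lists. Fits without normal R1 or without normal R2, which leave 1 normal array, called fewer genes in each direction. Fewer immediate early genes, inflammatory cytokines, chemoattractant receptors, granulocyte markers and costimulation genes were then called lower. Fewer monocyte and complement genes were then called higher. The median of the monocyte markers was then 0.56 or 0.43.

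Cytokine signalling lists held scattered changes. Of 22 JAK-STAT genes 3 fell, 13.6% against 6.51% of all genes. They were BCL6, a repressor of germinal centre cells (-1.10, SE 0.13), STAT3 (-1.01, SE 0.18) and STAT2 (-0.84, SE 0.21), although other STAT3 probes ran from -0.57 to 0.88. In the TNF superfamily 3 of 27 measured members rose and 2 fell, 11.1% and 7.41% against 3.34% and 6.51% of all genes. With the random block neither list had a called member. LTBR, the lymphotoxin beta receptor, was higher by 2.06 (SE 0.24) and CD70, a costimulatory ligand, by 1.90 (SE 0.30), whereas FASLG and its receptor FAS (-0.91, SE 0.14) were lower. IL2RA and IL2RG, chains of the interleukin-2 receptor, fell by 0.76 and 0.84. Among prostaglandin and leukotriene genes ALOX15, a lipoxygenase of eosinophils and macrophages (-1.38, SE 0.26), LTA4H, which makes leukotriene B4 (-0.77, SE 0.13), and PTGS1, a cyclooxygenase (-0.57, SE 0.14), fell, while TBXAS1, the thromboxane synthase, rose (0.96, SE 0.13).

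Receptors and enzymes of extracellular purines, signals of cell damage and of platelets, gave 5 lower of 17 measured, 29.4% against 6.51% of all genes, and a median of -0.58. With the random block 0 were called, with an adjusted p of 0.13 for P2RY12 in limma. P2RY12, an ADP receptor of platelets and myeloid cells, was at -2.12 and -2.09 in lame R1, at -2.03 and -2.15 in lame R2, and at -0.59 and -0.77 on the normal arrays (-1.42, SE 0.13, adjusted p = 0.00116). ADORA3, an adenosine receptor (-1.04, SE 0.24), ADA, adenosine deaminase (-0.98, SE 0.22), and P2RY13, another ADP receptor (-0.82, SE 0.13), were lower too, and the list had 0 higher members at an unadjusted p under 0.05 in limma. NFIL3, a transcription factor of the circadian clock list, was at 0.22 and 0.13 in lame R1, at 0.21 and 0.13 in lame R2, and at 1.94 and 2.0 on the normal arrays (-1.80, SE 0.13, adjusted p = 0.000502). BHLHE40, a repressor in the same list, fell (-1.27, SE 0.14) and PER2, a clock repressor, rose (0.93, SE 0.15). Of 17 measured clock genes 1 was thus higher and 2 lower. These were 5.88% and 11.8% against 3.34% and 6.51% of all genes, and 0 were called with the random block.

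Of 61 actin and cytoskeleton genes 6 fell and 2 rose, 9.84% and 3.28% against 6.51% and 3.34% of all genes, among them ARPC3, MARCKSL1 (-2.36, SE 0.38) and the small GTPase RHOH of blood cells (-2.10, SE 0.22), whose other probe gave 0.38. Of 33 adhesion genes 6 fell, 18.2%, and 0 were called with the random block. They included ITGAD, an integrin chain of leukocytes (-1.62, SE 0.20). Antioxidant genes split, with GSTM3, a glutathione transferase (2.08, SE 0.34), MGST1 (0.94, SE 0.14) and HMOX1, which degrades haem (0.64, SE 0.13), higher and MGST2, NQO2 and GSTT1 lower. The other NQO2 probe gave 0.14, opposite in sign to its brightest. LPL, the lipase that frees fatty acids from lipoproteins, rose by 0.98 (SE 0.20), while FABP5, a fatty acid carrier, fell (-1.22, SE 0.18). Epithelial genes had 4 lower of 10 measured, 40% against 6.51% of all genes, with a median of -0.06 and 0 called with the random block. They were KRT24, LSR, EPCAM, an adhesion molecule above background on 2 of the 4 lame arrays (-2.63, SE 0.26), and S100A14 (-2.27, SE 0.23). KRT24 and EPCAM were kept only through the normal arrays, where they were high, which favours a lower call. In the normal Tharparkar arrays LSR averaged -4.58 and S100A14 -6.41, below every lame array, and EPCAM -2.76, above every lame array. The reference genes gave 0.15 for ACTB, -0.15 for GAPDH, -0.25 for B2M and -0.45 for PTPRC, the pan-leukocyte CD45, with adjusted p of 0.709, 0.611, 0.4 and 0.0696.

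The lame RNA samples were then set against each other in a fit with 4 RNA-sample means, whose p-values rest on duplicate arrays and measure technical spread. In that fit 8395 genes (56.5%) differed, 5538 higher in lame R1 (37.3%) and 2857 lower (19.2%). CDH2, the adhesion protein N-cadherin, was at 1.01 and 0.75 in lame R1, at -2.58 and -2.66 in lame R2, and at -4.37 and -4.29 on the normal arrays. Lame R1 exceeded lame R2 by 3.50, and lame R2 lay closer to the normal arrays. DUSP26, a MAP kinase phosphatase, was at 1.53 and 1.43 in lame R1, and between -1.7 and -1.3 on the lame R2 and normal arrays. SQSTM1, the autophagy receptor p62, showed the opposite arrangement, with 2.12 and 2.40 in lame R1, 2.57 and 2.69 on the normal arrays, and -0.79 and -0.12 in lame R2. MFAP2, a protein of elastic microfibrils, PLAC8A and MOCS3 were also higher in lame R1, by 2.57, 2.35 and 2.71.

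In the other direction CD1A, which presents lipids to T cells, was at -0.84 and -0.92 in lame R1, at 1.70 and 1.59 in lame R2, and at 0.15 and 0.16 on the normal arrays. The normal sample thus lay between the lame samples. PRXL2A, an antioxidant protein, had the same order, with -2.79 and -2.51 in lame R1, -0.02 and -0.01 in lame R2, and -0.95 and -0.87 on the normal arrays. CLCN1, a muscle chloride channel, differed by -2.91 and ZNF341, a regulator of STAT3, by -2.64. FANCF, a DNA repair protein, and BMP4, a growth factor, differed by -2.59 and -2.52. FANCF stood at -2.49 on lame R2_1 and -0.95 on lame R2_2, and BMP4 at -1.41 and -0.43, so the duplicates themselves lay apart. None of the 12 genes named here for this difference was called between the lame and the normal crossbred group. Their choice made that likely, because a wide difference between the lame RNA samples enters the spread of that fit. CDH2, for example, differed by 3.46 (SE 1.12), with all lame arrays above the normal ones, and was not called.

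**Figure D4:**
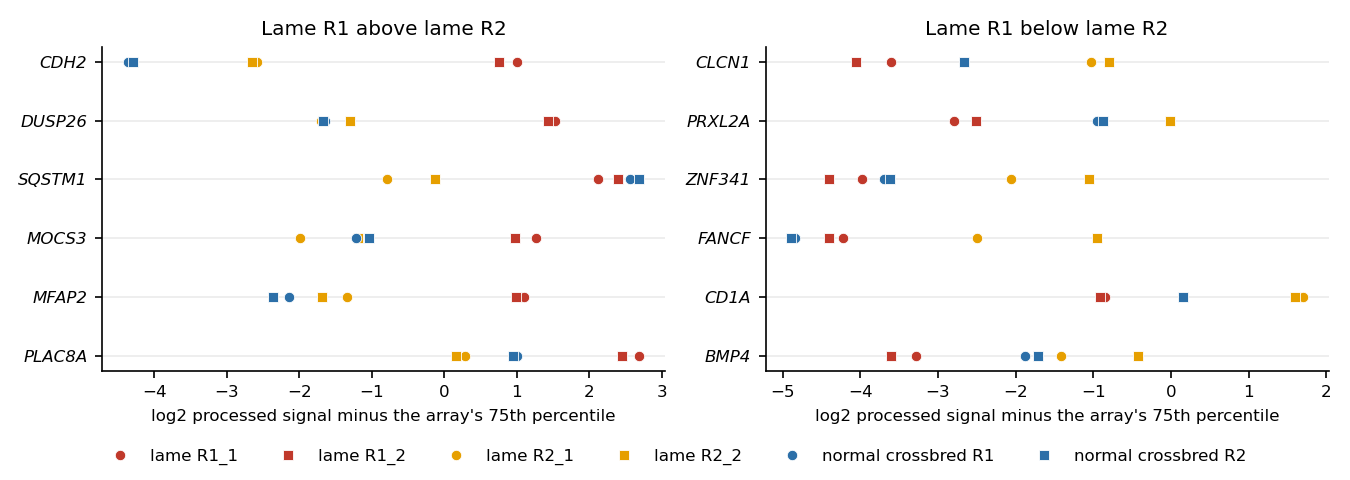
Levels of the 6 named genes with the largest excess of lame R1 over lame R2 (left) and of lame R2 over lame R1 (right), as log2 processed signal relative to the 75th percentile of the array (x axis). Each marker is 1 array in the colours red for lame R1, yellow for lame R2 and blue for normal crossbred, and the 3 RNA samples take different orders from gene to gene.

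Gene lists also separated the lame RNA samples. Mitochondrial ribosomal proteins, which translate the proteins encoded by mitochondrial DNA, had a median of 0.27 in lame R1 and -0.32 in lame R2 relative to the normal arrays, and 49 of 75 were higher in lame R1 against 4 lower. The spliceosome list had 0.22 and -0.38, with 42 of 57 higher in lame R1 and 0 lower. Over all genes 37.3% were higher in lame R1 and 19.2% lower. Between the lame and the normal group the mitochondrial and spliceosome lists held 0 and 1 called members. Of the 75 mitochondrial ribosomal proteins 4 were higher and 2 lower at an unadjusted p under 0.05, against 9.98% and 16% of all genes. Such genes are bright, and the brightest of 4 equal bins of all genes had medians of 0.11 in lame R1 and -0.36 in lame R2. The excess in lame R1 was 0.56 for the mitochondrial list in the main setting, 0.31 with quantile normalization and 0.48 without lame R2_2. That of the spliceosome list fell from 0.56 to 0.13 with quantile normalization. Under quantile normalization 9 of 57 spliceosome genes were higher in lame R1 and 6 lower. In the mitochondrial list 31 of 75 were then higher and 3 lower. Of all 14862 genes 3944 were then higher and 2548 lower. In the dimmest bin lame R2_2 exceeded lame R2_1 by a median of 0.60, against -0.12 in the brightest, whereas the lame R1 duplicates differed by 0.01 and -0.08. The part of signal brightness in the difference between lame R1 and lame R2 was not tested.

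The remaining lists are given for each lame RNA sample side by side, with the normal arrays as their shared baseline. T cell markers had a median of -0.66 in lame R1 and -0.50 in lame R2, and NK and cytotoxic genes -0.94 and -0.56. Monocyte markers had 0.34 and 0.63, costimulation and checkpoint genes -0.83 and -0.51, and interferon response genes -0.51 and -0.53. Gamma-delta T cell markers, a subset that is abundant in cattle, had -1.39 and -0.11 over 7 genes, and epithelial genes 0.08 and -0.58 over 10. All genes tested had 0.05 and -0.17, so the lame samples were not centred alike under this scaling.

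**Figure D5:**
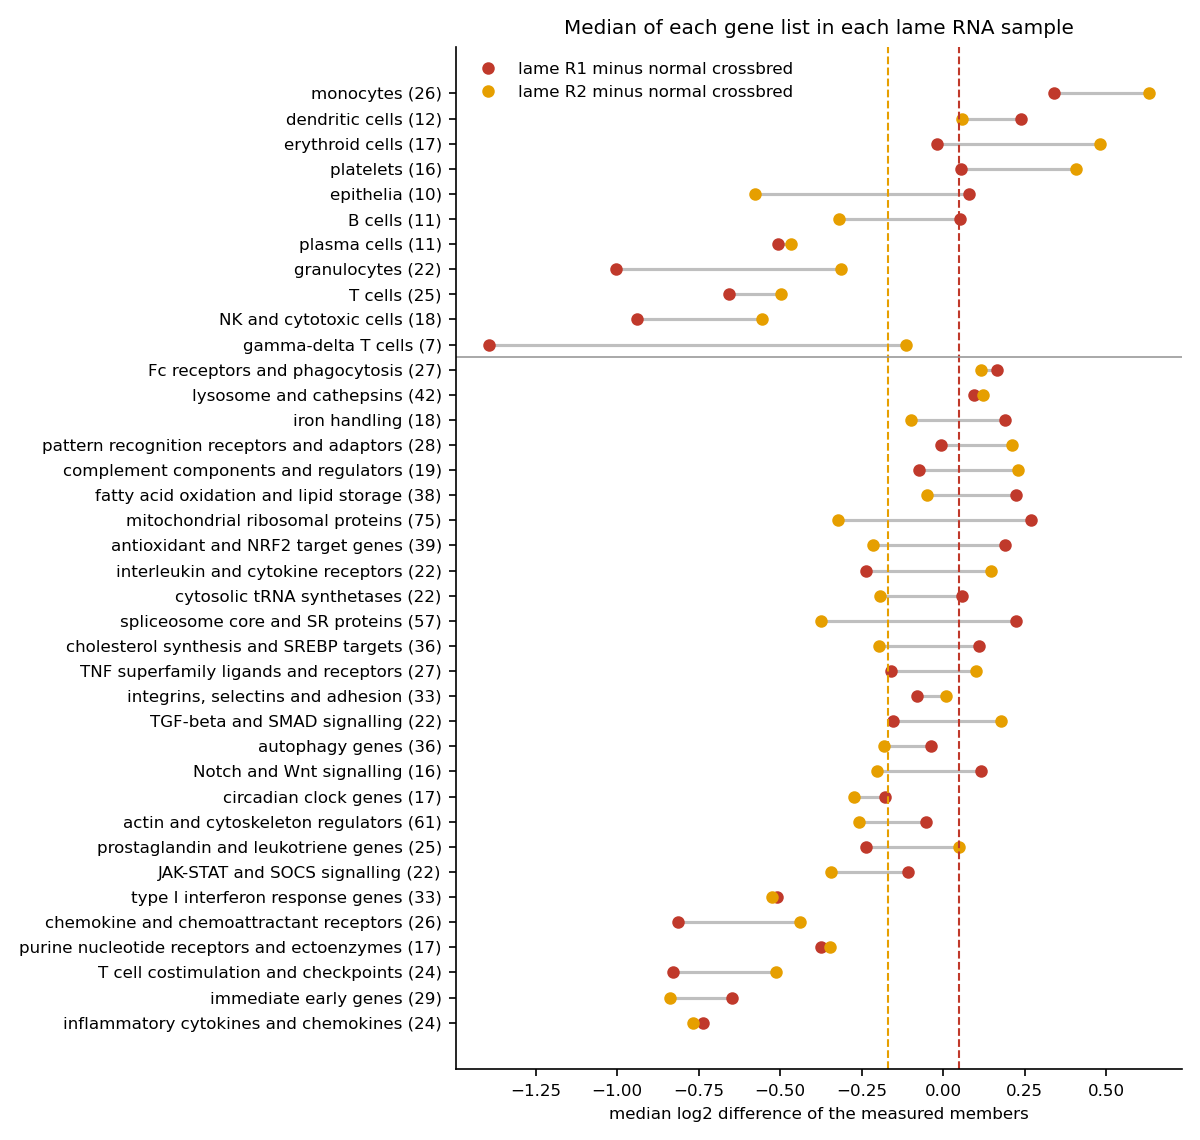
Median log2 difference from the normal crossbred arrays of each gene list (x axis) in lame RNA sample R1 (red) and R2 (yellow), with the number of measured genes in brackets and marker lists above the grey line. Dashed lines are the medians over all genes, 0.05 in lame R1 and -0.17 in lame R2, and the mitochondrial ribosomal and spliceosome lists lie on opposite sides of 0 in the lame samples.

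Probes of a gene did not always agree. Of 432 named called genes with at least 2 probes kept, 338 (78.2%) had every other probe on the same side as the brightest, and 196 (45.4%) had every other probe within 0.5 of it on the log2 scale. Among those changed by at least 2-fold, 176 of 205 (85.9%) had all probes on the same side.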

How the data were processed

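Cy3-labelled RNA was run on 1-colour Agilent bovine arrays, per the labels' protocols. The authors deposited scanner intensity for each spot, background-subtracted and detrended within the array, with flags for spots well above background, per the file headers, and a table of log2 values that followed log2 signal minus the array's 75th percentile and the probe's median over arrays (r of at least 0.999997, column medians -0.12 to 0.88). That table's scale and centring were found from this comparison. Headers name Agilent Feature Extraction 12.0.3.1 and the submitters' processing notes 11.5.1.1. By accession 27054 probes matched 1 RefSeq gene. The number of arrays limits precision.

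Control spots and 35 outlier probes were left out, and 0 spots were saturated. The fit used R 4.3.3 and limma 3.58.1 (lmFit, eBayes, 2-sided p, Benjamini-Hochberg adjustment) with 3 group means over 8 arrays, with 5 residual and 2.43 prior degrees of freedom, and called at an adjusted p under 0.05. A second fit had 4 RNA-sample means. The code was tested on simulated data. Bounds set the brighter group's mean against the dim probe's signal on each array, or the faintest measurable signal where that was higher. Slide 1 held the lame R1_1 and R2_1 and the first normal arrays. Deviations of arrays sharing a slide correlated at 0.37 and 0.12. The 6 arrays and 38 gene lists (1482 entries, 1010 measured) were chosen with earlier results of these data known. Named genes were the 12 each way with the widest gap between groups, the 6 each way that most separated the lame RNA samples, the 5 largest bounds each way, up to 4 called members of a list each way, list members with the smallest change, defining markers and ACTB, GAPDH, B2M and PTPRC. Normexp (offset 50) used median in place of mean spot signals. Tried alternatives were other scalings, filters, blocks, probe rules, the authors' table and leaving out arrays.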

Additional observations from a re-analysis of the deposited data

Results flagged for a closer look

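Among 148 named genes, 2 had a lame array apart from the other 3 by Dixon's criterion, which chance alone meets in about 1 of 20 groups. DPYSL5 stood at -2.60 on lame R2_1 against -2.02 to -1.95 on the others, and SERPING1, not well above background on any lame array, stood at -5.38 on lame R2_2 against -5.13. Over all genes 509 (3.42%) met it, and in 285 of them the array apart was lame R2_2.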

How the results depend on the processing

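Against 1463 calls (496 higher, 967 lower), the fit with slide as a replicate block gave 1013 (348 and 665), quantile normalization 1424, the authors' values 1469 and the mean of a gene's probes 1487. Counts moved with the 6 crossbred arrays only (761, 241 and 520), duplicates averaged (190, 71 and 119, with 1 residual degree of freedom), the RNA sample as a random block (31, 14 and 17), median scaling (364, 47 and 317), normexp (649, 141 and 508) and no filter on dim probes (356, 124 and 232). Without lame R1 there were 7001 (2224 and 4777) and without lame R2 7150 (3750 and 3400), since each rests on duplicates alone. Leaving out 1 array gave 186 to 1812 (68 to 642 higher, 118 to 1170 lower). The lowest came without a normal array, with 186 without R1 and 208 without R2. Differences between lame R1 and R2 fell from 8395 to 4474 with normexp and were 9103 with the replicate block. Genes with all lame arrays above the normal ones numbered 2308, and 4030 without lame R1, 6153 without lame R2, 479 with median scaling and 3599 without the filter. Those below numbered 3491, and 7439 and 5278 without lame R1 or R2. Of 132 named calls, 104 were kept with the replicate block, 43 to 127 without 1 array, 52 with median scaling, 40 with duplicates averaged and 16 with the random block, and 0 changed sign in any of these. The signal over background limits dim genes most on lame R2_2.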
